A study of Homo sapiens with 8 samples.

Results

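FN1 encodes fibronectin, a large glycoprotein of the extracellular matrix, and the alternative exons of its mRNA were followed here in U2OS cells depleted of CHERP. The members were the splicing events that rMATS, a program that counts reads on the alternative forms of an event, listed for FN1 (ENSG00000115414.14). They made up 25 of the 132938 events in the 10 tables, with 17 in whole cells and 8 in the cytoplasm. The whole-cell ones were 10 skipped exons (SE), 3 alternative 3′ splice sites (A3SS), 3 retained introns (RI) and 1 pair of mutually exclusive exons (MXE). All 8 cytoplasmic events were also listed in whole cells, so that 17 events were distinct. U2OS is a human osteosarcoma line that was transfected for 48 h with 20 nM EGFP siRNA, against a gene the cells lack, or 20 nM CHERP siRNA #2. RNA was taken from whole cells or from the supernatant of NP-40-lysed cells as the cytoplasmic fraction, which gave 8 libraries, 2 for every combination of siRNA and fraction. CHERP was targeted with 1 siRNA sequence, and all cells are of 1 line. CHERP is a nuclear protein associated with the U2 snRNP, the particle that binds the branch site of an intron, and the comparison asked which splicing choices depend on it.

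Fibronectin is built from repeated modules and is secreted as a dimer that cells assemble into fibrils through integrins. Its pre-mRNA is spliced alternatively at 3 places. EDB and EDA are cassette exons that each encode 1 complete type III module, and the variable region is an exon with several 3′ splice sites and an internal intron whose segments can be included or left out. Fibronectin with EDB or EDA is known from embryos, wounds and tumours and is made by mesenchymal cells, whereas the plasma form from hepatocytes lacks both. The first segment of the variable region is known to hold a binding site for integrin α4β1. In the files, EDB and EDA were identified as the FN1 cassette exons over 200 nt with a length divisible by 3 and at least 10 reads on average for each form in whole cells, outside the exon with alternative 3′ splice sites. EDB is the upstream one on the mRNA.

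FN1 lies on the minus strand of chromosome 2 (hg19). EDB, at chr2:216257654-216257926, is 273 nt long and was exon 25 of 47 in the GENCODE transcript FN1-201, wholly coding. EDA, at chr2:216245534-216245803, is 270 nt long and was exon 33 of that transcript, also wholly coding. The full variable exon, at chr2:216236632-216237098, was coding exon 40 of 46 in FN1-203. Of 27 annotated FN1 transcripts, 3 held the EDB exon and 6 the EDA exon. The exons are shown on the transcribed strand because the results turn on whether they are kept, with each GAAGAA, a purine-rich exonic sequence, in capitals.
EDB exon: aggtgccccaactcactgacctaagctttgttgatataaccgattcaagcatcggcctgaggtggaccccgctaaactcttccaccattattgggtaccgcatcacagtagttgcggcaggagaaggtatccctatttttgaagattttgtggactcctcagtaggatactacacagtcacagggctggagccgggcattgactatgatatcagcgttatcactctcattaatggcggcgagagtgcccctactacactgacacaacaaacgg
EDA exon: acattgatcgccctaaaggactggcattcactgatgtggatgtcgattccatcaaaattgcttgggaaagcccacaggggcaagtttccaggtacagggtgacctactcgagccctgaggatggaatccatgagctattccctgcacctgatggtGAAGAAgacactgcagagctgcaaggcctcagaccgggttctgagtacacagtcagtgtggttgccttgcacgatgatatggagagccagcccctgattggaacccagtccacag
The EDA exon held 1 GAAGAA and the EDB exon 0. Of the 2416 distinct SE exons within 50 nt of the length of EDA, 20.6% held at least 1. GC content was 49.5% for EDB and 53.0% for EDA, beside a median of 46.6% over 48505 distinct SE exons.

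The splice sites of the alternative exons were as follows, with exon bases in capitals.
EDB 3′ splice site: tttgctttgtaactcaatagAGG
EDB 5′ splice site: CGGgtgaat
EDA 3′ splice site: accattaatttgcctaacagACA
EDA 5′ splice site: CAGgtatat
Variable region, first 3′ splice site: ctctaacctctctcggctagACG
Variable region, middle 3′ splice site: cttggatgttccttccacagTTC
Variable region, last 3′ splice site: caatccaaatgcctctacagGAC
Each site was scored as a log2 ratio of the base frequencies at the sites of all SE exons against equal base frequencies. The 3′ splice site of EDB scored 6.15 and that of EDA 6.49. Of the exons, 20.3% and 22.9% lay below them, so both stood low among the sites. Low 3′ scores were not confined to the alternative exons. Among the FN1 exons with levels of at least 0.995, that at chr2:216251412-216251681 scored -4.55 (0.233% of exons below). The exon at chr2:216235017-216235155 scored 0.83 (2.21% below), and the others of this kind 8.91, 9.39 and 14.1. The 5′ splice sites scored 6.27 for EDB and 7.96 for EDA, with 25.2% and 49.6% of the exons below. The first 3′ splice site of the variable region scored 3.38, with 92.9% of the sites at or above it. These values describe the sequences and were not tested.

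The intron downstream of EDB is 1116 nt long and is known for repeats of TGCATG, the motif that RBFOX proteins bind in RNA. TGCATG was found 6 times on the transcribed strand of this intron, and its reverse complement CATGCA, which can overlap it, 2 times. Over the first 1116 bases of 32825 introns of at least that length downstream of SE exons, 26.7% held at least 1 TGCATG and 0.0579% held 6 or more. The hits began 42, 603, 636, 740, 998 and 1025 bases after the exon. The 300 bases at chr2:216256909-216257208 with the most hits are shown with TGCATG in capitals.
EDB downstream intron: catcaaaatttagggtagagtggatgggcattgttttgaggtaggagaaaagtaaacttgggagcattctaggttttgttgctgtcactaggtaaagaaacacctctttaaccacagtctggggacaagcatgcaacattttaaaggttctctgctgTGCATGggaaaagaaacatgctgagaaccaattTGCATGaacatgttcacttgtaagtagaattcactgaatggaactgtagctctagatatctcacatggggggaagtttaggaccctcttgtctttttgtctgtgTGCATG
A match gives the letters alone, and binding was not measured.

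The whole-cell libraries held 29409956 to 35664568 reads on events of the 5 types, and the cytoplasmic ones 5370756 to 6580099. On FN1 events they lay between 14846 and 21074 in whole cells and between 768 and 1252 in the cytoplasm, so the cytoplasmic values of FN1 rest on far fewer reads. A read on several events counts at each. The inclusion level, from 0 to 1, divides the reads of each form by its effective length and gives the inclusion form as a share of both. Skipping forms had an effective length of 144 in the whole-cell tables and 73 in the cytoplasmic tables, so levels were not tested between fractions. CHERP itself (ENSG00000085872.10) had 103 and 77 event reads in the EGFP siRNA libraries of whole cells, where the depleted ones had 3 and 10. The cytoplasmic libraries had 31 and 21 against 3 and 4. Of the fixed markers, vimentin (VIM) of mesenchymal cells had 57402 to 80880 reads per whole-cell library. COL1A1, COL1A2 and SPARC, which bone-forming cells express, had no event in either fraction. Reads are counted on listed splicing events alone, so a marker without an event may still be expressed. RUNX2 had 0 to 18 reads and CDH2, a mesenchymal cadherin, 87 to 176 in whole cells. The bone phosphatase gene ALPL had no whole-cell event and 2 to 43 reads in the cytoplasm, where it rose by 2.45 on the log2 scale (standard error 0.56, adjusted p = 0.0287 from limma), and its part in the results on FN1 was not tested. The epithelial marker CDH1 had 1 to 22 reads, the haematopoietic marker CD34 had 1 to 19, and the remaining epithelial, haematopoietic and hepatocyte markers (EPCAM, KRT19, PTPRC, ALB and APOA1) had no such event.

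EDB was skipped more often after CHERP depletion. In whole cells, its inclusion level was 0.528 and 0.474 with EGFP siRNA, against 0.302 and 0.263 with CHERP siRNA. Both CHERP siRNA libraries lay below both EGFP siRNA libraries. The first EGFP siRNA library had 544 inclusion and 168 skipping reads and the second 574 and 220. The CHERP siRNA libraries had 484 and 386 reads in the first and 337 and 326 in the second. The mean level therefore fell by 0.218, from 0.501 ± 0.0381 (SD, n = 2) to 0.283 ± 0.0276 (SD, n = 2). The odds of inclusion with CHERP siRNA were 0.400 times those with EGFP siRNA (95% interval 0.314 to 0.510, FDR = 6.9e-11 from the quasi-binomial test with Benjamini-Hochberg adjustment). Of the 63977 SE events in whole cells, 0.893% passed the FDR threshold of 0.05, and 0.436% passed with a lower level in CHERP siRNA. Among these 279 lower events, 21 had a smaller FDR than EDB and 83 a larger fall in level. The test gave EDB a dispersion of 2.5, the value of SE events at its read depth, while its own libraries gave 3.40. On simulated data whose dispersion varied between events, more of the calls were false than the FDR threshold allows. The call of EDB depended on that dispersion. With the dispersion of each event taken alone, the FDR of EDB was 0.786 (unadjusted p = 0.0231 from the quasi-binomial test). With limma on the log2 odds the FDR was 0.725, and the unadjusted p of 0.198 from limma did not pass either. With every group counted in the degrees of freedom, a rule also tried with the values of FN1 in view, the FDR was 0.361 (unadjusted p = 0.000523 from the quasi-binomial test). In these 3 settings 0 of the SE events in whole cells passed, and 676, 5243 and 4614 had an unadjusted p under 0.05 in the order named.

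**Figure D1:**
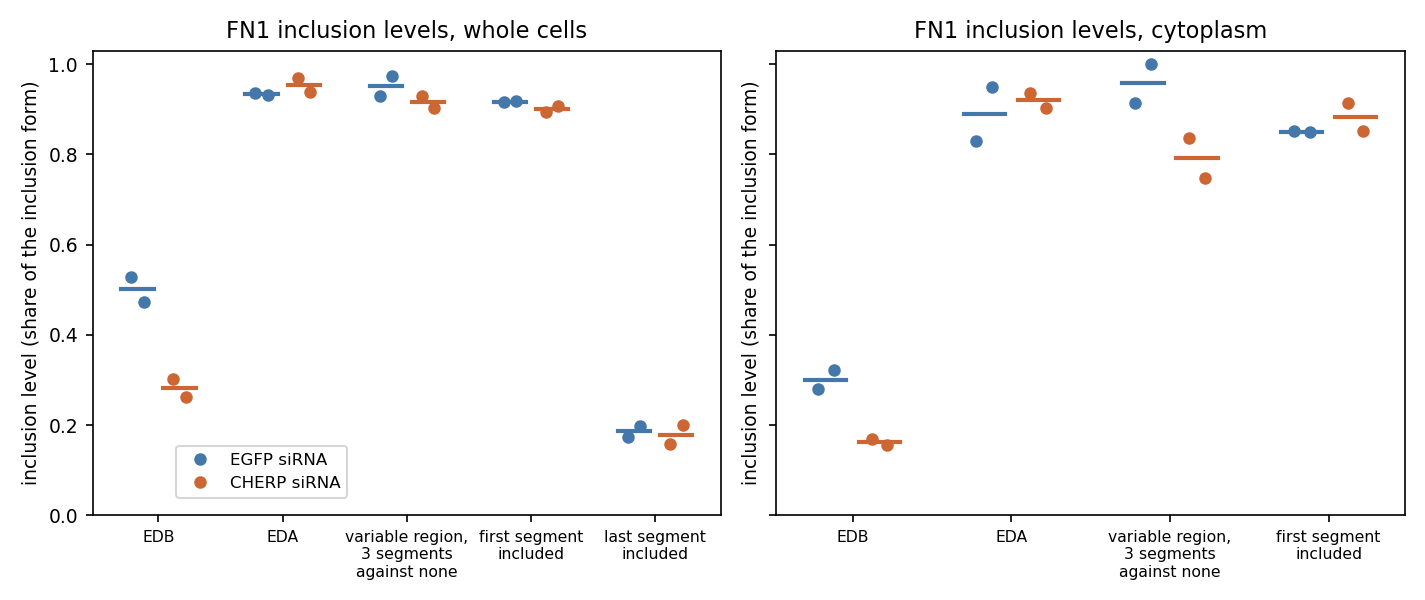
Inclusion level of FN1 alternative exons and segments in whole cells and in the cytoplasm, with a point for each library and a bar for the mean of each siRNA. EDB fell from a mean of 0.501 to 0.283 in whole cells and stood at 0.301 and 0.162 in the cytoplasm, while the EDA levels lay between 0.830 and 0.971.

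In the cytoplasm, the inclusion level of EDB was 0.281 and 0.321 with EGFP siRNA, against 0.169 and 0.155 with CHERP siRNA. The groups did not overlap here either. These levels rest on 74 and 74 inclusion reads and 40 and 33 skipping reads with EGFP siRNA, and on 50 and 34 inclusion reads and 52 and 39 skipping reads with CHERP siRNA. The mean was 0.301 ± 0.0286 (SD, n = 2) and 0.162 ± 0.00940 (SD, n = 2), and the odds were 0.457 times those with EGFP siRNA (95% interval 0.261 to 0.801). The difference did not pass the adjusted test (FDR = 0.588, unadjusted p = 0.00576 from the quasi-binomial test), where 0.257% of the 31924 cytoplasmic SE events passed. This call too moved with the dispersion, since the FDR was 0.0378 with 1 dispersion for all events and between 0.00300 and 0.915 over all alternatives. For the difference between fractions, the ratio of the odds ratios, cytoplasm over whole cells, was 1.14 (95% interval 0.649 to 2.01, FDR = 0.983 for the interaction of siRNA and fraction in the quasi-binomial test). Of the 23893 shared SE events, 0 (0%) passed this interaction test and 689 had an unadjusted p under 0.05. Differences within that interval were not excluded. The interval is that of EDB alone and is not a detection limit of the adjusted test, so larger differences could also have been missed.

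EDB was also measured without the skipping reads, by its reads per effective base over those of other FN1 exons, a ratio chosen after the data were seen. The constitutive exon used, at chr2:216251412-216251681, lies between EDB and EDA on the mRNA and is 270 nt long. Relative to it, EDB stood at 0.402 and 0.443 with EGFP siRNA, against 0.235 and 0.213 with CHERP siRNA in whole cells. The mean ratio with CHERP siRNA was 0.530 times that with EGFP siRNA. Relative to EDA, EDB stood at 0.372 and 0.412 against 0.253 and 0.193 in whole cells. In the cytoplasm the same ratio was 0.456 and 0.412 against 0.235 and 0.257. Both CHERP siRNA libraries lay below both EGFP siRNA libraries in each of these ratios, and the means with CHERP siRNA were 0.569 times those with EGFP siRNA in whole cells and 0.567 times in the cytoplasm. The ratios use the same inclusion reads of EDB as the levels above, so they are not independent of them. No test was run on these ratios.

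**Figure D2:**
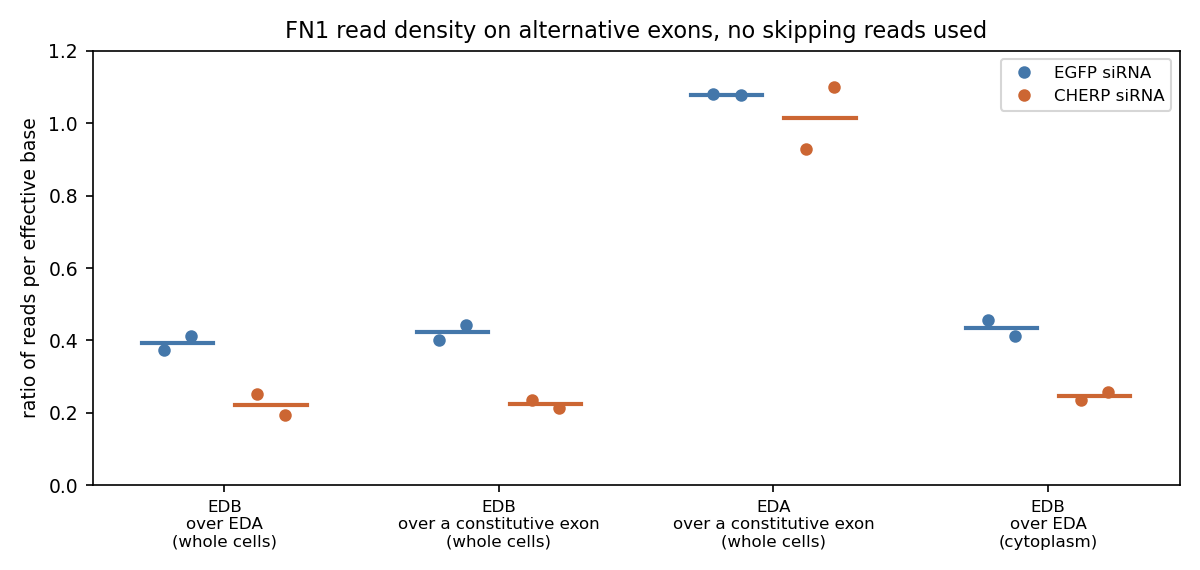
Reads per effective base on EDB or EDA over those on another FN1 exon, with a point for each library and a bar for each siRNA's mean. EDB over the constitutive exon lay at 0.402 and 0.443 with EGFP siRNA, against 0.235 and 0.213 with CHERP siRNA, while EDA over that exon lay between 0.930 and 1.10 in all whole-cell libraries.

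EDA was included in most FN1 mRNA under both siRNAs. Its level in whole cells was 0.937 and 0.932 with EGFP siRNA, against 0.971 and 0.939 with CHERP siRNA. The CHERP siRNA libraries lay above the others, the second of them by little. The means were 0.935 ± 0.00327 (SD, n = 2) and 0.955 ± 0.0222 (SD, n = 2), and the odds ratio was 1.5 (95% interval 0.867 to 2.58, FDR = 0.784 from the quasi-binomial test). Skipping of EDA rested on 20 to 39 reads per library beside 1384 to 1898 inclusion reads. Per effective base, EDA stood at 1.08 and 1.08 times the constitutive exon with EGFP siRNA, against 0.930 and 1.10 times with CHERP siRNA. In the cytoplasm the level of EDA was 0.830 and 0.95 with EGFP siRNA, against 0.937 and 0.903 with CHERP siRNA, and the groups overlapped. The odds ratio there was 1.47 with a wide interval of 0.368 to 5.91 (FDR = 0.775 from the quasi-binomial test), from 2 to 7 skipping reads per library. The ratio of odds ratios between the fractions was 0.986 (95% interval 0.247 to 3.93, FDR = 1 for the interaction).

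The changes of the cassette exons were compared directly within each fraction. In whole cells, the odds ratio of EDB divided by that of EDA was 0.268 (95% interval 0.148 to 0.486), and the difference between their log odds changes passed the test (two-sided p = 1.47e-05 from the quasi-binomial fit). In the cytoplasm the same ratio was 0.310 (95% interval 0.0693 to 1.39, p = 0.125 from the quasi-binomial fit), so a difference was not detected there. Both exons come from the same libraries and mRNA, and the whole-cell p was 0.0755 when each event kept its own dispersion.

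The variable region was mostly included. Its main event compares the exon with all 3 segments with the form that starts at the last 3′ splice site and lacks them. The level of this event is not the share of FN1 mRNA that holds all 3 segments. As an intron, the last segment was retained at only 0.159 to 0.199 in whole cells. In whole cells the inclusion level was 0.930 and 0.974 with EGFP siRNA, against 0.930 and 0.902 with CHERP siRNA. The groups overlapped, and the means were 0.952 ± 0.0311 (SD, n = 2) and 0.916 ± 0.0196 (SD, n = 2). The odds ratio was 0.572 (95% interval 0.307 to 1.06, FDR = 0.872 from the quasi-binomial test), where 1.14% of the A3SS events in whole cells passed. In the cytoplasm the level was 0.915 and 1 with EGFP siRNA, against 0.836 and 0.747 with CHERP siRNA. The groups did not overlap, but the shorter form had 2 and 0 reads with EGFP siRNA, against 5 and 4 with CHERP siRNA. The 0 of 103 reads in the second EGFP siRNA library allows a share of up to 2.91% of the reads. This bounds the level less tightly, because the effective lengths of 433 and 73 give each read of the shorter form more weight. The odds ratio of 0.252 (95% interval 0.0444 to 1.43) did not pass (FDR = 0.821 from the quasi-binomial test), and 0.372% of the cytoplasmic A3SS events did.

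The segments of the variable region were also followed one by one. The first segment, 75 nt at chr2:216237024-216237098, had a level of 0.916 and 0.918 with EGFP siRNA, against 0.895 and 0.909 with CHERP siRNA in whole cells. Its odds ratio was 0.828 (95% interval 0.549 to 1.25, FDR = 0.872 from the quasi-binomial test). In the cytoplasm its level was 0.852 and 0.850 against 0.914 and 0.852, with an odds ratio of 1.45 (95% interval 0.604 to 3.50) in the opposite direction. The last segment, 93 nt at chr2:216236739-216236831, is spliced out as an intron, and its level was far lower. It was retained at 0.173 and 0.199 with EGFP siRNA, against 0.159 and 0.199 with CHERP siRNA in whole cells. Its odds ratio was 0.948 (95% interval 0.706 to 1.27, FDR = 0.919 from the quasi-binomial test), where 3.26% of the RI events passed. The event of the last segments against none, 285 nt, had levels of 0.849 and 0.944 against 0.846 and 0.806 in whole cells and did not pass (FDR = 0.841). In the cytoplasm its levels were 0.529 and 1 against 0.222 and 0.234, but each rests on 9 to 13 reads in all, of which 2 and 0 were of the shorter form with EGFP siRNA, against 5 and 4 with CHERP siRNA (FDR = 0.821, unadjusted p = 0.0344 from the quasi-binomial test). Skipping of the whole 267 or 192 nt exon gave levels of at least 0.895 in every library of both fractions, and all 4 tests of it had an FDR of 0.761 or 0.784. These events share their skipping reads with the main event and are not independent of it.

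**Figure D3:**
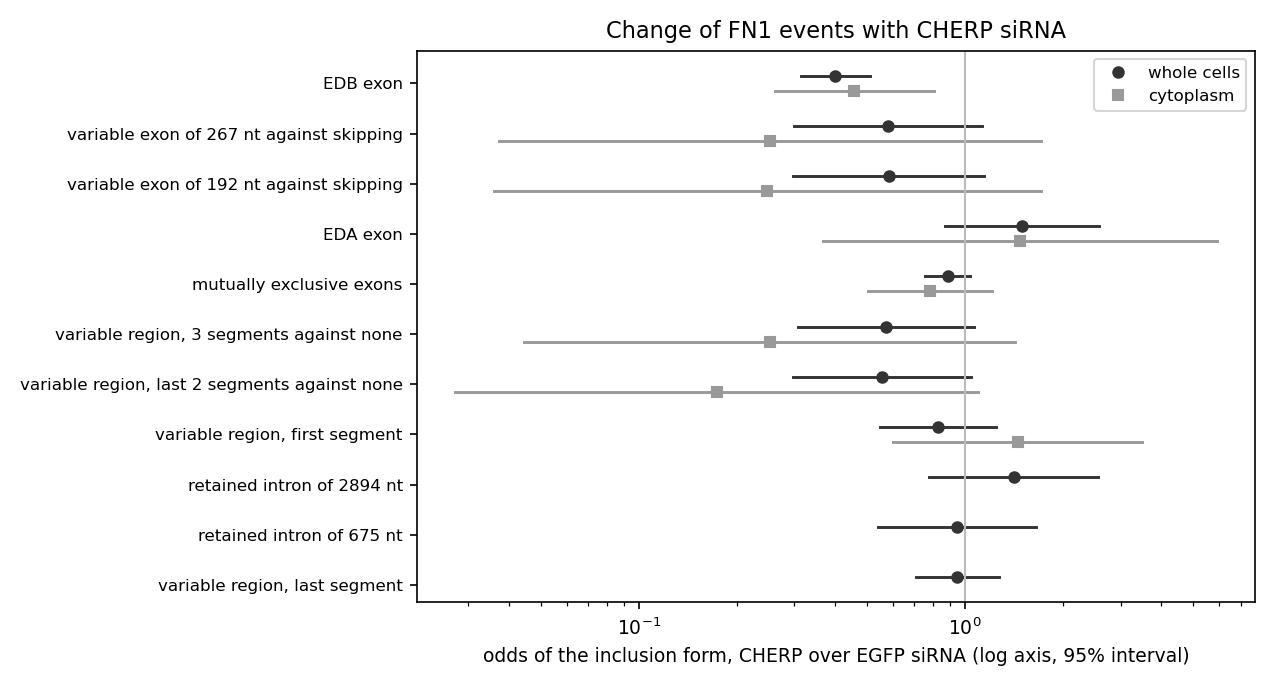
Odds of the inclusion form with CHERP siRNA over those with EGFP siRNA for 11 FN1 events on a log axis, with 95% intervals, in whole cells (dark circles) and the cytoplasm (grey squares); 6 whole-cell SE events with almost no reads on 1 form are not drawn. The intervals of EDB, 0.314 to 0.510 in whole cells and 0.261 to 0.801 in the cytoplasm, lay below 1, and those of the other events held 1.

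The remaining events bear on exons that were hardly alternative in these cells. Of the SE events, 5 concerned exons with 516 to 2041 inclusion reads and at most 4 skipping reads per library, so their levels were at least 0.995. A further exon of 46 nt in the intron upstream of EDA had 1 inclusion read in all whole-cell libraries. The MXE event pairs exons of 165 and 139 nt that both belong to these near-constitutive exons. It had levels of 0.435 and 0.414 against 0.382 and 0.412 in whole cells (FDR = 0.695 from the quasi-binomial test) and an FDR of 0.807 in the cytoplasm, where 1.6% and 0.863% of the MXE events passed. A retained intron of 675 nt had a level of 0.0102 to 0.0197, near that of full splicing (FDR = 0.957). The event that spans the EDA exon as a retained intron of 2894 nt had levels of 0.445 and 0.441 against 0.631 and 0.451, and its skipping reads are those of EDA skipping (FDR = 0.776). The 2894 nt hold the EDA exon itself, so reads on spliced EDA may count as inclusion here. These levels therefore do not measure retention of the intron. In all, 1 of the 17 whole-cell events and 0 of the 8 cytoplasmic events passed the quasi-binomial test. At an unadjusted p under 0.05 there were 1 and 2, EDB in both and the 285 nt event in the cytoplasm, where 6.45% of all events of these types lay under it in whole cells and 4.03% in the cytoplasm. The groups did not overlap in 6 of 17 and 6 of 8 FN1 events, beside 28.4% and 25.7% of all such events with a level in every library. The 6 in the cytoplasm were EDB and the 5 variable region events, which share reads with each other, so they are not 6 separate measurements.

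By a rule of distance, other exons were ranked by how close their 4 group mean inclusion levels lay to those of EDB, over 5531 SE events with at least 100 reads on average in both fractions. The nearest were in EIF4A2, SAMD4A, LETM2, DNAJB6 and HNRNPR, at Euclidean distances of 0.148 to 0.185. The exon of SAMD4A, for example, had mean levels of 0.438 and 0.269 in whole cells and 0.431 and 0.206 in the cytoplasm, each with EGFP siRNA first. The exons nearest to EDA, in ADK, RAB35, MAPKAP1, AP3S1 and PCBP2, lay at 0.0214 to 0.0281. The ranking is a description and says nothing of shared control.

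FN1 abundance, the reads per effective base summed over its events and scaled between the libraries of a fraction, stood at 44.6 and 36.5 with EGFP siRNA, against 52.0 and 47.2 with CHERP siRNA in whole cells. Both CHERP siRNA libraries were higher than both EGFP siRNA libraries. On a log2 scale with 0.01 added to each value, the difference was 0.30 with a standard error of 0.16 (adjusted p = 0.223 from limma), where 27% of the 9660 genes passed. In the cytoplasm the values were 4.32 and 3.55 against 4.28 and 3.23, the groups overlapped, and the difference was -0.07 (standard error 0.19, adjusted p = 0.784 from limma), where 39% of the 7293 genes passed. So a change of the FN1 level was not detected in either fraction. In bulk RNA, fewer cells that express a gene and less RNA per cell cannot be told apart. FN1 had no row in the list of 6757 genes from the authors' expression analysis, and no value was taken from it. The paper's increased and decreased cytoplasmic transcripts at an FDR under 0.05 are together of about that number. The list thus appears to hold only genes called changed, and absence from it does not mean that FN1 was not measured.

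Fibronectin acts through receptors at the cell surface, of which integrin α5β1 (ITGA5 and ITGB1) is the classical one. Of the 14 genes of the receptor list, 8 could be tested in whole cells, and 3 rose and 1 fell, where 27% of all genes passed in either direction. ITGA5 rose by 0.98 on the log2 scale (standard error 0.13, adjusted p = 0.0125 from limma), ITGAV by 0.91 and ITGB1 by 0.57. ITGB8, a partner of ITGAV, fell by 0.88 (adjusted p = 0.0398 from limma), on a mean of 96 reads per library. ITGB8 did not pass with pseudocount 1, no minimum of reads or scaling by total reads (adjusted p = 0.0834, 0.0758 and 0.0508 from limma). It passed with a variance trend, with SE events alone and with each distinct exon counted once. In the cytoplasm, where 39% of all genes passed, 4 of 6 rose and 0 fell: ITGA3, a laminin-binding integrin subunit, by 1.00, ITGA5 by 0.99, ITGAV by 0.71 and ITGB1 by 0.42. The median change of the list was 0.41 and 0.57, beside medians of 0.01 and -0.01 over all genes tested. When either CHERP siRNA library was left out, 0 receptors passed in whole cells. In the cytoplasm 1 passed without the first CHERP siRNA library, and 2 without the second or without the second EGFP siRNA library. Of their 67 SE events in whole cells and 33 in the cytoplasm, 0 passed the quasi-binomial test, and 5 and 0 had an unadjusted p under 0.05. Over all events of the types that FN1 has, 6.45% and 4.03% lay under it.

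Adaptors link the integrins to actin. Of 12 tested in whole cells 2 rose and 0 fell. Vinculin (VCL) rose by 1.00 (standard error 0.14, adjusted p = 0.0134 from limma) and kindlin-2 (FERMT2) by 0.61. In the cytoplasm 3 of 10 rose, namely PXN by 0.71, FERMT2 by 0.58 and LIMS1 by 0.86, and 0 fell. Both shares lay under those of all genes in either direction, 27% and 39%. Rises alone took up 1283 of 9660 genes in whole cells and 1392 of 7293 in the cytoplasm, smaller shares than in the list. This difference was not tested. TLN1, the talin that activates integrins, did not pass in either fraction, with -0.30 and -0.21. The medians were 0.33 and 0.17. Without either CHERP siRNA library 0 adaptors passed in whole cells, and in the cytoplasm 0 passed without either EGFP siRNA library and 1 without the second CHERP siRNA library. Among 106 SE events of adaptor genes in whole cells, 1 passed, a 24 nt exon of FLNA, the actin crosslinker filamin A, at chrX:153585619-153585642, with mean levels of 0.681 and 0.844 (FDR = 3.66e-09), and 1 of 63 passed in the cytoplasm, also in FLNA. Over all SE events 0.893% and 0.257% passed. At an unadjusted p under 0.05 there were 9 adaptor events in whole cells and 6 in the cytoplasm. Beside these, 6.45% and 4.03% of all events of the types that FN1 has lay under it.

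Genes for matrix proteins that bind or process fibronectin moved in both directions. Of 10 tested in whole cells, 4 rose and 2 fell, and in the cytoplasm 1 of 8 rose and 3 fell, beside 27% and 39% of all genes in either direction. TNC, which encodes tenascin-C, rose by 1.73 (standard error 0.14, adjusted p = 0.00794 from limma) in whole cells and by 1.26 in the cytoplasm. COL5A1, a fibrillar collagen chain, rose by 1.26 in whole cells, and LTBP1 and BMP1 by 0.65 and 0.64. THBS1, which encodes thrombospondin-1, fell by 1.57 in whole cells and by 1.38 in the cytoplasm. FBLN1, a matrix glycoprotein that binds fibronectin, fell by 1.05 and 1.16. TGM2, a transglutaminase that crosslinks fibronectin, fell by 0.81 in the cytoplasm (adjusted p = 0.00997 from limma) and had a difference of -0.83 in whole cells that did not pass. The medians were 0.30 and 0.36. Without either CHERP siRNA library 2 of these genes passed in whole cells, TNC and THBS1. LTBP1 lost its call in 6 of 10 alternatives and BMP1 in 5 of 10. Of the 58 SE events of the list in whole cells and 26 in the cytoplasm, 0 passed the quasi-binomial test, and 9 and 1 had an unadjusted p under 0.05. Over all events of the types that FN1 has, 6.45% and 4.03% lay under it, and the difference was not tested.

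Of the splicing factors known to act on FN1 exons, 9 could be tested in each fraction, and 1 fell in whole cells and 4 in the cytoplasm. With 0 rising, these shares lay below and near those of all genes in either direction, 27% and 39%. Falls alone took up 1328 of 9660 genes in whole cells and 1450 of 7293 in the cytoplasm. The list's share of falls was thus lower in whole cells and higher in the cytoplasm, a difference that was not tested. MBNL1, an RNA-binding protein of developmental splicing, fell by 0.75 in whole cells (standard error 0.13, adjusted p = 0.0198 from limma) and by 0.67 in the cytoplasm. The SR proteins SRSF1 and SRSF3 fell by 0.50 and 0.48 in the cytoplasm, and their whole-cell differences of -0.43 and -0.43 did not pass. PTBP1, a splicing repressor, fell by 0.36 in the cytoplasm (adjusted p = 0.0495 from limma). PTBP1 did not pass with SE events alone or with no minimum of reads (adjusted p = 0.0605 and 0.118 from limma). It passed with a variance trend, pseudocount 1, scaling by total reads and each distinct exon counted once. RBFOX2, which binds TGCATG, was named for its motif and had differences of -0.05 and -0.30 that did not pass, and SRSF5, SRSF7, TRA2B and HNRNPA1 did not pass in either fraction. The medians were -0.27 and -0.36. Among 134 SE events of these genes in whole cells, 1 passed, a 36 nt exon of MBNL1 with mean levels of 0.808 and 0.985 (FDR = 0.00817). This share was near the 0.893% of all SE events. In the cytoplasm 0 of 47 passed the quasi-binomial test. At an unadjusted p under 0.05 there were 10 in whole cells and 6 in the cytoplasm. Over all events of the types that FN1 has, 6.45% and 4.03% lay under it, and the difference was not tested. When any 1 library was left out, 0 or 1 of the factors passed in either fraction. The part of these factors in the EDB result was not tested.

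**Figure D4:**
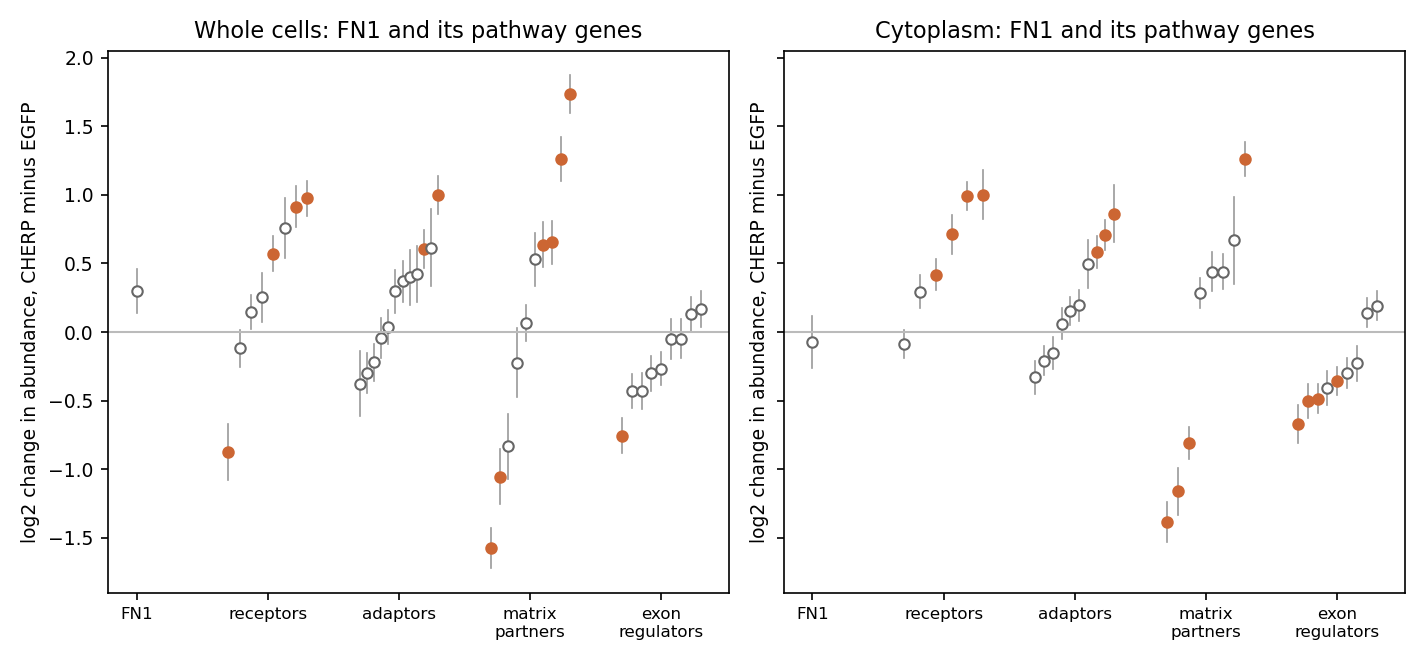
Log2 change in abundance, CHERP minus EGFP siRNA, for FN1 and the tested genes of 4 lists in whole cells and the cytoplasm, with bars for 1 standard error and filled points for an adjusted p under 0.05. FN1 stood at 0.30 and -0.07, TNC was highest at 1.73 and 1.26, and THBS1 lowest at -1.57 and -1.38.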

How the data were processed

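RNA of U2OS cells was sequenced by the authors from TruSeq stranded mRNA libraries on a NextSeq instrument and mapped to hg19 with STAR 2.5.2b. The authors then ran rMATS, whose version is not given in the sources used here. The deposited tables hold unnormalized reads per library on the inclusion and skipping forms and the effective length of each form. Each cell joins 2 libraries without a replicate number, so libraries are named by their place in the cell. The 20 columns of inclusion levels and the authors' p-values were not used. RSEM 1.2.25 and EBSeq gave the authors' list of cytoplasmic genes, apparently those called changed, which holds pooled means and was not used. The authors describe the 2 libraries of a group as biological replicates.

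Inclusion against skipping was tested by a quasi-binomial model on all events of a type, with Pearson dispersion moderated by squeezeVar of limma 3.58.1 in R 4.3.3 on a trend of mean reads with a floor of 1 and Benjamini-Hochberg adjustment at 0.05. The prior degrees of freedom were infinite, so the spread of a single event had no weight. How a group with reads on 1 form alone counts in the degrees of freedom had not been settled beforehand. In all 10 forms of the dispersion were tried with FN1 values in view. The form used counts such a group for none, because it holds no information on spread and because it matches the earlier processing of these data. Tests compared likelihood ratios, and the 95% intervals came from standard errors scaled by the dispersion. The limit for a 0 (3 counts) covers counting error only. Gene abundance, the summed reads per effective base of a gene's SE, A5SS and A3SS events, entered limma as log2 after 0.01 was added, for genes averaging 20 reads or more. EDB and EDA were found by the read criterion of 10 reads for each form. Named genes were the list members past the threshold and up to 4 more with the most reads of each list. The members and lists were chosen with earlier results of these data known. The sequences came from GRCh37, which is hg19, through pysam 0.24.0, and GENCODE 44 lifted to GRCh37 gave exon numbers. The tests were checked on simulated data in which 200 events or genes changed. With dispersion that varied between events, more of the simulated calls were false than the FDR threshold allows.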

Additional observations from a re-analysis of the deposited data

How the results depend on the processing

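No paired analysis was possible because the columns carry no replicate number. With 2 libraries per group, leaving out 1 leaves a lone library that is assumed to vary like the others. The depth limits the cytoplasm most, where EDA and variable region skipping rested on under 10 reads per library. The cause of each change was not tested.

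For EDB in whole cells, the difference of -0.218 had an FDR of 0.786 with the dispersion of each event taken alone, 0.725 with limma on log2 odds, and, in forms added after the data were seen, 0.361, 0.388 and 0.680 with all groups counted in the degrees of freedom (with a trend, 1 dispersion or each event's own). The count of changed FN1 events was then 0 in place of 1. It was 1 in the other settings. In the 4 fits without 1 library the EDB difference lay between -0.245 and -0.191, with an FDR of at most 4.33e-05. As a read density, chosen after the data were seen, EDB over EDA differed by -0.169, and over the constitutive exon by -0.199. EDA over the constitutive exon differed by -0.0635, against 0.0203 for the inclusion level. EDB against EDA in whole cells, -1.32 in natural log odds, had a p of 0.0755 with each event's own dispersion, under either count of degrees of freedom, and lay between -1.65 and -1.10 without 1 library.

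For EDB in the cytoplasm, the difference of -0.139 had an FDR of 0.0378 with 1 dispersion for all events and 0.00300 when all groups were counted in the degrees of freedom and testing was also limited to events whose rarer form averaged 10 reads or more (both changed together, added after the data were seen; no value for EDA or the variable region), where 1 FN1 event passed in place of 0. It was 0.0519 when such events set the prior. The share of reads without effective length differed by -0.192, and the density over EDA by -0.188. Without 1 library the difference lay between -0.159 and -0.119. EDB against EDA there, -1.17, had a p of 0.0479 with 1 dispersion and 0.0491 with the 3 settings on the rarer form, and lay between -1.58 and -0.575 without 1 library. The variable region in the cytoplasm differed by -0.0354 as a share of reads, against -0.166, and by 0.0325 for its first segment alone. The cytoplasmic EDA difference lay between -0.0297 and 0.0897 without 1 library, its lowest value without the first EGFP siRNA library. FN1 abundance in the cytoplasm lay between -0.26 and 0.14 without 1 library, and was 0.06 without the first EGFP siRNA library and 0.14 without the second CHERP siRNA library. The EDA change, cytoplasm minus whole cells, lay between -0.71 and 0.49 in log odds and was positive in 4 of these 8 fits, at 0.02, 0.32, 0.49 and 0.12.

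Of the gene lists, 4 receptors changed in whole cells, 2 with no minimum of reads and 0 to 3 without 1 library. In the cytoplasm 4 changed, 1 with no minimum and 1 to 3 without 1 library. Adaptors went from 2 to 1 with no minimum and to 0 to 3 in whole cells, and from 3 to 5 with a variance trend (added later), 1 with no minimum and 0 to 2 in the cytoplasm. Matrix partners went from 6 to 3 with no minimum and to 2 to 6 in whole cells. Exon regulators went from 1 to 4 with a variance trend, 5 with pseudocount 1, 3 with total reads and 0 to 1 in whole cells, and from 4 to 8, 7 and, with no minimum, 0, and to 0 to 1 in the cytoplasm. Scaling by total reads moved the median of all genes to -0.03 in whole cells and -0.09 in the cytoplasm. TNC and THBS1 kept their call in both fractions in all 10 alternatives each.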
